A study of Homo sapiens with 4 samples.

Results

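Oxidative phosphorylation is carried out in the inner mitochondrial membrane by 5 protein complexes, and the genes examined here are the nuclear genes that encode their subunits, together with the complex I assembly factors named NDUFAF. They were taken by symbol: every transcript cluster with exactly 1 annotated symbol that began with NDUFA, NDUFB, NDUFC, NDUFS, NDUFV, UQCR, COX4 to COX8 or ATP5, or was SDHA, SDHB, SDHC, SDHD or CYC1. After 5 pseudogenes and 2 antisense genes were left out, and the cluster with the highest mean was kept per gene, 84 genes remained of 22411 on the array with 1 symbol. They were 32 complex I subunits, 8 complex I assembly factors, 3 genes of complex II, 8 of complex III, 15 of complex IV and 18 of complex V. A further 9 clusters carried a matching symbol beside another one, such as COX7C with MIR3607 and UQCRH with UQCRHL, and were not used here. SDHB was not analysed here.

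The cells were HCT116, an established human colon cancer line with an activating mutation in its own CTNNB1 gene, which encodes beta-catenin, through which Wnt signals reach their target genes. They were transfected with 50 nM of CTNNB1 siRNA or of a control siRNA, both with Lipofectamine RNAiMAX, and total RNA was taken after 48 h. Each group had 2 biological replicates with 1 whole-transcript Affymetrix array each, 4 arrays in all. The siRNA sequences, and whether a single siRNA or a pool was used, are not stated in the labels, and loss of beta-catenin and other effects of that siRNA cannot be told apart. The labels do not say that replicates came from separate cultures, so p-values measure only the spread between these samples.

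As background, electrons from NADH enter the chain at complex I, and those from succinate at complex II, which is also an enzyme of the tricarboxylic acid cycle. Coenzyme Q carries them to complex III and cytochrome c on to complex IV, where oxygen is reduced. Complexes I, III and IV pump protons out of the matrix, and complex V, the ATP synthase, uses their return to make ATP. Nuclear respiratory factor 1 (NRF1), the ETS family factor GABPA and YY1 are known regulators of many of the nuclear subunit genes.

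Promoter sequence is shown for the member that fell most, SDHD, for a second complex II member, SDHA, and for the member that rose most, NDUFB3, each of which has a single start in the table. Each sequence is the 250 bases before the RefSeq start, 5′ to 3′ on the gene's strand (build GRCh38.p14). SDHD lies on the plus strand at chr11:112086623-112086872, SDHA on the plus strand at chr5:218070-218319 and NDUFB3 on the plus strand at chr2:201071751-201072000. Capitals mark matches, on either strand, to the letters searched. These were GCGCA and GCGC with any 1 base between them for NRF1, CCGGAAG for ETS factors and AAGATGG for YY1.
SDHD: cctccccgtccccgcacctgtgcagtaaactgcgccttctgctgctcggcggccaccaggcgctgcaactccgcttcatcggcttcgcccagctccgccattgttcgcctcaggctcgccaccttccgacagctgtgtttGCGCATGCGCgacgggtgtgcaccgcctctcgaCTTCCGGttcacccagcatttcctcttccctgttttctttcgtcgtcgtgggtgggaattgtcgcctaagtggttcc
SDHA: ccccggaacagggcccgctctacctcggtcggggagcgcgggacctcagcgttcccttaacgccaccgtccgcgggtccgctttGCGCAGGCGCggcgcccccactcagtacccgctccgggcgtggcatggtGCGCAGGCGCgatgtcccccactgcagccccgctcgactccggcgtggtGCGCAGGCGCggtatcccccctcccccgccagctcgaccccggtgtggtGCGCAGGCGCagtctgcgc
NDUFB3: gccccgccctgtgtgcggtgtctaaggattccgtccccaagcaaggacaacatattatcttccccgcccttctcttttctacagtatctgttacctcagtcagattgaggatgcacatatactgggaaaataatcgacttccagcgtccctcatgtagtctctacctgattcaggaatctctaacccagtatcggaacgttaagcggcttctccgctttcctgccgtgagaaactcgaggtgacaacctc
SDHA held 4 NRF1 matches, spaced by 49 bases, SDHD held 1 NRF1 and 1 ETS match that did not overlap, and NDUFB3 held none of the 3 motifs. RefSeq starts were matched for 68 of the 84 genes, not among them SDHC and NDUFB5, with 85 windows in all. Of these, 83 windows belonged to members tested, and 13 of them (15.7%) held the NRF1 letters. The share was 8.06% for the windows of all genes tested and 5.07% for all 35116 windows in the table. The ETS letters stood in 17 of the 83 (20.5%), against 12.7% and 8.52%. The YY1 letters stood in 5 (6.02%), against 3.46% and 3.7%. For 10 of the 15 members that fell there were 14 windows. Of these, 3 held the NRF1 letters, 4 the ETS letters and 1 the YY1 letters. Of 10 windows of 7 members that rose, none held the NRF1 or ETS letters and 1 held the YY1 letters. Of 59 windows of members that did not pass, 10 held the NRF1 letters, 13 the ETS letters and 3 the YY1 letters. A match is a description of the letters and not a binding site, and a gene with several starts has several windows.

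Values are log2 expression levels as deposited. They were compared with limma across the 15679 genes whose mean lay above the 30th percentile (4.29 log2 units), and a gene was called where the p-value, adjusted over all of them by the Benjamini-Hochberg method, was under 0.05. Levels of different genes are not compared with each other, because they come from different probes. CTNNB1 was at 6.50 and 6.65 log2 units on the CTNNB1 siRNA arrays, against 10.06 and 10.20 on the control arrays, so the targeted gene was lower in both samples that carry its label. Replicate arrays correlated across genes with r = 0.9974 and 0.9972, while r lay between 0.9772 and 0.9802 for a CTNNB1 siRNA array set against a control array. The epithelial genes EPCAM, KRT8 and KRT18 lay between 11.49 and 13.71 on every array, and all 4 epithelial genes tested, CDH1 among them, were called higher with CTNNB1 siRNA, while the intestinal genes CDX2 and VIL1 lay below the level filter. The leukocyte gene PTPRC lay below it as well. CD68, listed as a macrophage marker, was at 8.99 and 9.08 with CTNNB1 siRNA and at 7.41 and 7.39 with control siRNA, and was the single gene called of the 2 leukocyte genes tested. The part of these markers in the results was not tested.

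Of the 84 oxidative phosphorylation genes, 81 were tested, and 23 of them were called: 15 were lower and 8 higher after CTNNB1 siRNA. That is 28.4% of the members tested, against 30.3% of all genes tested. For the lower direction it is 18.5% against 16.1%, and for the higher direction 9.88% against 14.2%. The share of changed genes among the members was thus near the background. The 2 groups did not overlap for 56 members (69.1%), against 63% of all genes tested. The median log2 fold change of the members was -0.095, against -0.015 for all genes tested. It was -0.051 after quantile normalization and -0.04 without CTNNB1 siRNA replicate 1. The median size of a change, 0.18 log2 units, was the same as for all genes tested. Only NDUFB3 and SDHD reached a 2-fold difference, which is 2.47% of the members, against 5.72% of all genes tested. In RNA from a whole culture, fewer cells with a transcript and less of it per cell cannot be told apart.

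All 3 measured genes of complex II were called lower. In the other complexes the share called was near or below the 30.3% of all genes tested, at 25% for complex I subunits, 25% for complex III, 8.33% for complex IV and 27.8% for complex V. It was 50% for the 8 complex I assembly factors, which is 4 genes. Among these, NDUFAF4 passed narrowly (adjusted p 0.0467 in limma) and did not pass without a level filter (0.0595 in limma). The class medians were -0.885 for complex II, -0.18 for complex III, -0.135 for complex IV, -0.053 for complex I subunits, -0.105 for complex I assembly factors and 0.06 for complex V. With these numbers of genes per complex no test of the differences between complexes was made.

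**Figure D1:**
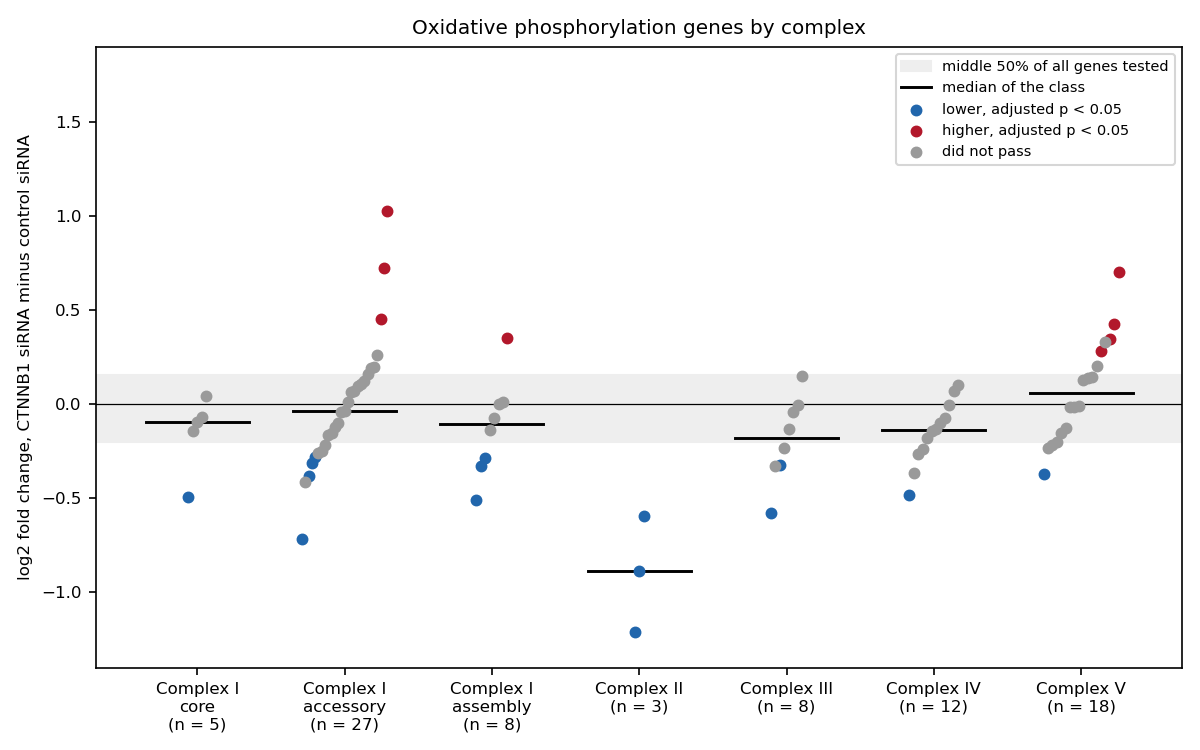
Log2 fold change (CTNNB1 siRNA minus control siRNA, y axis) of each tested member, by complex (x axis, with the number tested), coloured by call, with the class median as a bar and the middle 50% of all genes tested as a grey band from -0.2 to 0.155. The 3 complex II genes lie between -1.21 and -0.595, below that band, and 41 of the 81 members lie within it.

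Complex II, succinate dehydrogenase, oxidises succinate to fumarate and passes the electrons to coenzyme Q. SDHA encodes its flavoprotein with the succinate site, and SDHC and SDHD encode the membrane anchor. SDHD, on chromosome 11, was at 7.51 and 7.89 log2 units with CTNNB1 siRNA, against 8.94 and 8.88 with control siRNA. The log2 fold change of SDHD was -1.21 (SE 0.136), with a 95% interval of -1.549 to -0.871, a 2.31-fold difference with an adjusted p of 0.00221 in limma. SDHC, on chromosome 1, was at 9.06 and 9.63 with CTNNB1 siRNA, against 10.09 and 10.37 with control siRNA. It fell by 0.885 (SE 0.203, adjusted p 0.0232 in limma), and its replicates lay further apart than those of SDHD and SDHA in each group. SDHA, on chromosome 5, was at 8.11 and 8.41 with CTNNB1 siRNA, against 8.89 and 8.82 with control siRNA. It fell by 0.595 (SE 0.118, adjusted p 0.0144 in limma), a 1.51-fold difference. For each of the 3 genes the groups did not overlap, as was the case for 63% of all genes tested. In each, replicate 1 of the CTNNB1 siRNA group was the lowest array.

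The 4 complex II assembly factors did not show such falls. SDHAF1, SDHAF2, SDHAF3 and SDHAF4 had log2 fold changes between -0.06 and 0.11 and adjusted p-values between 0.489 and 0.867 in limma. Their 95% intervals lay between -0.262 and 0.358, and thus above the upper bound of each subunit's interval, of which the nearest to 0 was -0.302 for SDHA. These are intervals of single genes, and the difference between the subunits and these factors was not tested. Of the 43 further assembly factors described below, which include these 4, 27.9% were called.

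Complex III, the cytochrome bc1 complex, takes electrons from coenzyme Q to cytochrome c. Of its 8 members, 2 fell, none rose and 6 did not pass. CYC1, which encodes the haem subunit cytochrome c1, was at 8.19 and 8.36 log2 units with CTNNB1 siRNA, against 8.83 and 8.88 with control siRNA. It fell by 0.58 (SE 0.091, adjusted p 0.00664 in limma), close to the change of SDHA. UQCR11, a small accessory subunit, was at 4.63 and 4.60 with CTNNB1 siRNA, against 4.92 and 4.95 with control siRNA, and fell by 0.32 (SE 0.076, adjusted p 0.0254 in limma). Its levels lie near the level filter, which limits how far a fall can be measured. The core protein gene UQCRC1 had a log2 fold change of -0.33 with a wider spread (SE 0.125, adjusted p 0.106 in limma). Its partner UQCRC2 was at 13.74 and 13.90 with CTNNB1 siRNA and at 13.67 on each control array, a difference of 0.15 that did not pass. UQCRB, which binds ubiquinone, was at -0.23 and UQCR10 at -0.13, and UQCRQ and UQCRHL lay within 0.04 of 0. UQCRHL is a near-identical copy of UQCRH, so an array may mix their signals.

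Complex IV, cytochrome c oxidase, had the fewest calls. Of 15 members 12 were tested, and of these 1 fell, none rose and 11 did not pass, which is 8.33% called. The gene that fell was COX5B, a matrix-facing subunit. It was at 5.65 and 5.78 log2 units with CTNNB1 siRNA, against 6.09 and 6.30 with control siRNA, a log2 fold change of -0.48 (SE 0.105, adjusted p 0.0195 in limma). Of the 11 that did not pass, 9 had a negative log2 fold change, and adjusted p-values ranged from 0.0676 to 0.975 in limma. The 9 ran from COX4I1 at -0.365 (SE 0.118), COX5A at -0.265 (SE 0.108) and COX6B1 at -0.24 (SE 0.079) to COX7A2 at -0.005. Of all 12 tested, 10 were negative, as were 8286 of the 15679 genes tested, and the difference from other genes was not tested.

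Several complex IV subunits exist as a ubiquitous isoform and a form known from muscle, lung or testis. COX4I1 was at 11.29 and 11.58 log2 units with CTNNB1 siRNA, against 11.75 and 11.85 with control siRNA. Its partner COX4I2, known from lung and from low oxygen, was at 4.88 and 4.67 with CTNNB1 siRNA and at 4.83 and 4.98 with control siRNA, near the level filter. COX6A1 changed by -0.14 and its muscle form COX6A2 by 0.105, neither of which passed. COX6A2 lay between 4.86 and 5.12 on the 4 arrays, also near the level filter. COX7A2 differed by -0.005 and COX7A2L, a factor of respiratory supercomplexes, by -0.18, with adjusted p-values of 0.975 and 0.25 in limma. COX7B and COX8A changed by 0.07 and -0.1 and did not pass. The tissue forms COX7A1, COX7B2 and COX8C lay between 3.43 and 3.94 on every array, which is under the level filter, so no test was made. COXFA4, formerly NDUFA4 and now assigned to complex IV, is outside the set by its symbol. It was at 7.56 and 7.64 with CTNNB1 siRNA, against 7.24 and 7.47 with control siRNA, and did not pass (log2 fold change 0.245, adjusted p 0.14 in limma). Its paralog COXFA4L2 had a log2 fold change of -0.05.

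**Figure D2:**
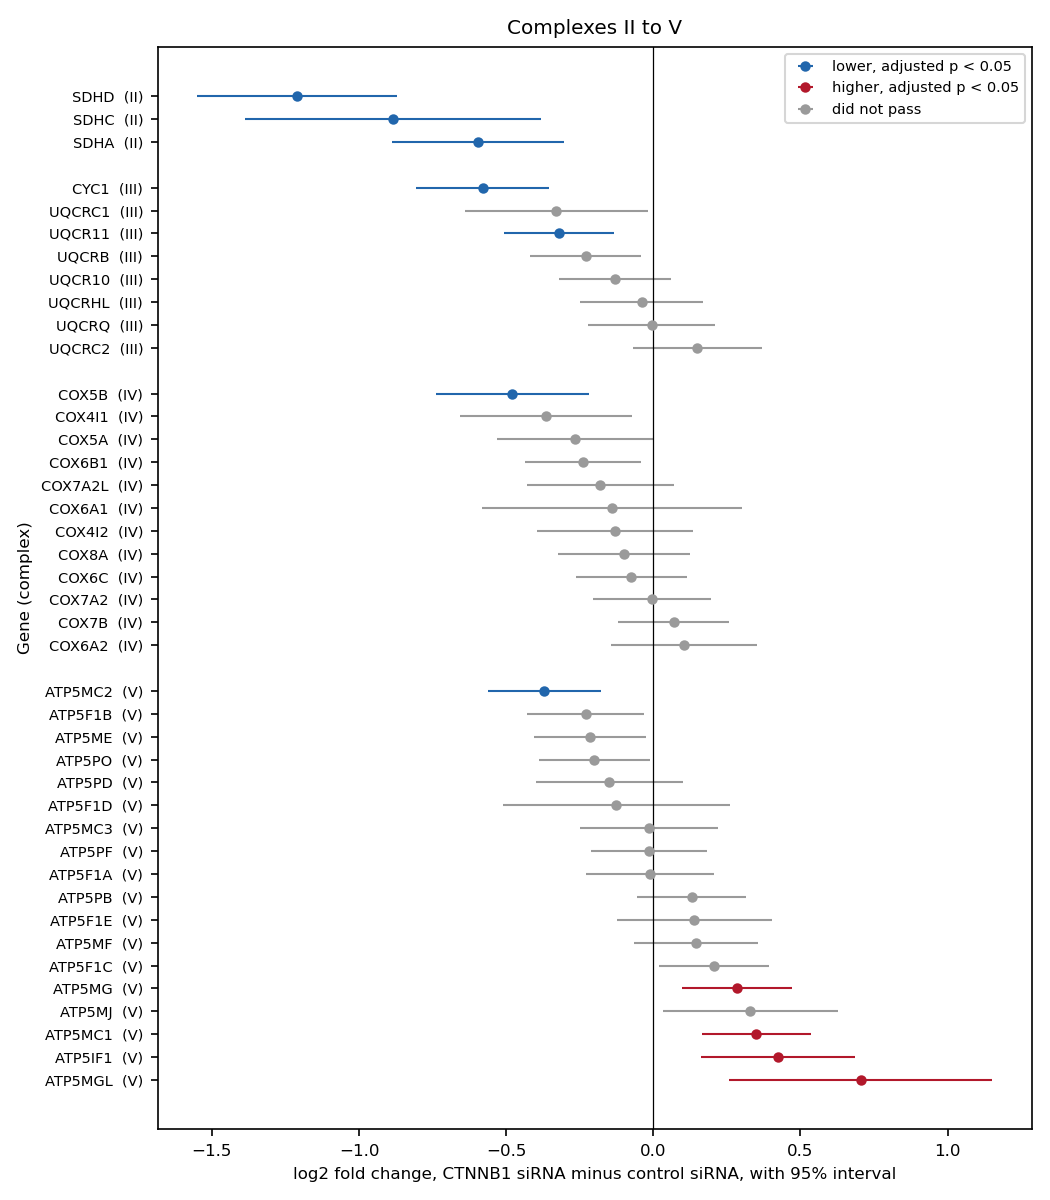
Log2 fold change (x axis, CTNNB1 siRNA minus control siRNA) with its 95% interval from limma for each tested gene of complexes II to V (y axis), coloured by call. SDHD and ATP5MGL stand at the ends, at -1.21 and 0.705, and 7 of the 41 genes are called lower and 4 higher.

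Complex V makes ATP with a catalytic F1 head, a peripheral stalk and a membrane ring of subunit c. Of its 18 members 4 rose, 1 fell and 13 did not pass. None of the 5 F1 genes, ATP5F1A to ATP5F1E, and none of the 4 stalk genes, ATP5PB, ATP5PD, ATP5PF and ATP5PO, was called. The F1 genes ranged from -0.23 for ATP5F1B, which encodes the catalytic beta subunit, to 0.205 for ATP5F1C, which encodes the gamma subunit of the rotor. The stalk genes ranged from -0.2 to 0.13.

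The calls lay in the c ring, in the other membrane subunits and in the inhibitor. ATP5MC1, ATP5MC2 and ATP5MC3 encode the same mature subunit c with different import sequences, and 2 of them moved in opposite directions. ATP5MC1 was at 8.63 and 8.64 log2 units with CTNNB1 siRNA, against 8.30 and 8.27 with control siRNA, and rose by 0.35 (SE 0.075, adjusted p 0.0186 in limma). ATP5MC2 was at 6.39 and 6.46 with CTNNB1 siRNA, against 6.79 and 6.80 with control siRNA, and fell by 0.37 (SE 0.077, adjusted p 0.0171 in limma). ATP5MC3 had a log2 fold change of -0.015 and did not pass. ATP5IF1, which inhibits hydrolysis of ATP by the synthase, was at 8.73 and 8.71 with CTNNB1 siRNA, against 8.17 and 8.42 with control siRNA, and rose by 0.425 (SE 0.105, adjusted p 0.0299 in limma). ATP5MG, membrane subunit g, was at 9.03 and 9.01 with CTNNB1 siRNA, against 8.73 and 8.74 with control siRNA. It rose by 0.285 (SE 0.075, adjusted p 0.036 in limma), and did not pass when the variance was allowed to follow the mean level (adjusted p 0.053 in limma).

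ATP5MGL, a close copy of ATP5MG whose signal may mix with it, was at 7.31 and 7.04 log2 units with CTNNB1 siRNA, against 6.71 and 6.23 with control siRNA. It rose by 0.705 (SE 0.18, adjusted p 0.0329 in limma), and its log2 fold change was 0.465 without control siRNA replicate 2. ATP5MJ had a log2 fold change of 0.33 (SE 0.12), ATP5MF of 0.145 and ATP5ME of -0.215, and none of the 3 passed.

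Complex I, NADH dehydrogenase, is built from core subunits that carry the redox centres or the proton path and from accessory subunits around them. Of the 32 subunits tested, 5 fell, 3 rose and 24 did not pass, which is 25% called. Among the 5 nuclear core genes measured, NDUFV2, an iron-sulphur subunit of the NADH-oxidising tip, was the single call. It was at 8.54 and 8.65 log2 units with CTNNB1 siRNA, against 9.12 and 9.06 with control siRNA, and fell by 0.495 (SE 0.083, adjusted p 0.00828 in limma). NDUFV1, which binds NADH and the flavin, NDUFS1, NDUFS3 and NDUFS7 lay between -0.14 and 0.045 and did not pass, with adjusted p-values between 0.251 and 0.757 in limma.

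Of the 27 accessory genes, 4 fell, 3 rose and 20 did not pass. NDUFB3, a subunit of the membrane arm, was at 8.48 and 8.36 log2 units with CTNNB1 siRNA, against 7.27 and 7.51 with control siRNA. It rose by 1.03 (SE 0.109, 95% interval 0.759 to 1.301), a 2.04-fold difference and the largest rise among the members tested (adjusted p 0.00183 in limma). NDUFC1 was at 7.31 and 7.42 with CTNNB1 siRNA, against 6.64 on each control array, and rose by 0.725 (SE 0.081, adjusted p 0.00217 in limma). NDUFV3, an accessory subunit at the NADH-oxidising tip beside NDUFV2, was at 8.74 and 8.67 with CTNNB1 siRNA, against 8.27 and 8.23 with control siRNA. It rose by 0.455 (SE 0.078, adjusted p 0.00886 in limma), while NDUFV2 fell. NDUFB5, a further membrane arm subunit, was at 7.60 and 8.0 with CTNNB1 siRNA, against 8.46 and 8.57 with control siRNA, and fell by 0.715 (SE 0.144, adjusted p 0.0151 in limma).

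The remaining accessory calls were small falls. NDUFA5 fell by 0.38 (SE 0.077), NDUFS5 by 0.31 (SE 0.084) and NDUFA10 by 0.28 (SE 0.076), with adjusted p-values between 0.0156 and 0.0408 in limma. NDUFS5 did not pass without a level filter (adjusted p 0.0523), after centring of the arrays (0.0509) or with a variance trend (0.0602), and NDUFA10 did not pass after quantile normalization (0.0588), all in limma. The 20 genes that did not pass were split evenly, 10 with a negative and 10 with a positive log2 fold change. NDUFB2 had 2 clusters that went different ways. The cluster with the higher mean, TC07000885.hg.1, was at 7.47 and 7.50 with CTNNB1 siRNA, against 7.73 and 8.07 with control siRNA, and the other, TC07003344.hg.1, at 6.68 and 6.83, against 6.62 and 6.66. Neither passed.

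**Figure D3:**
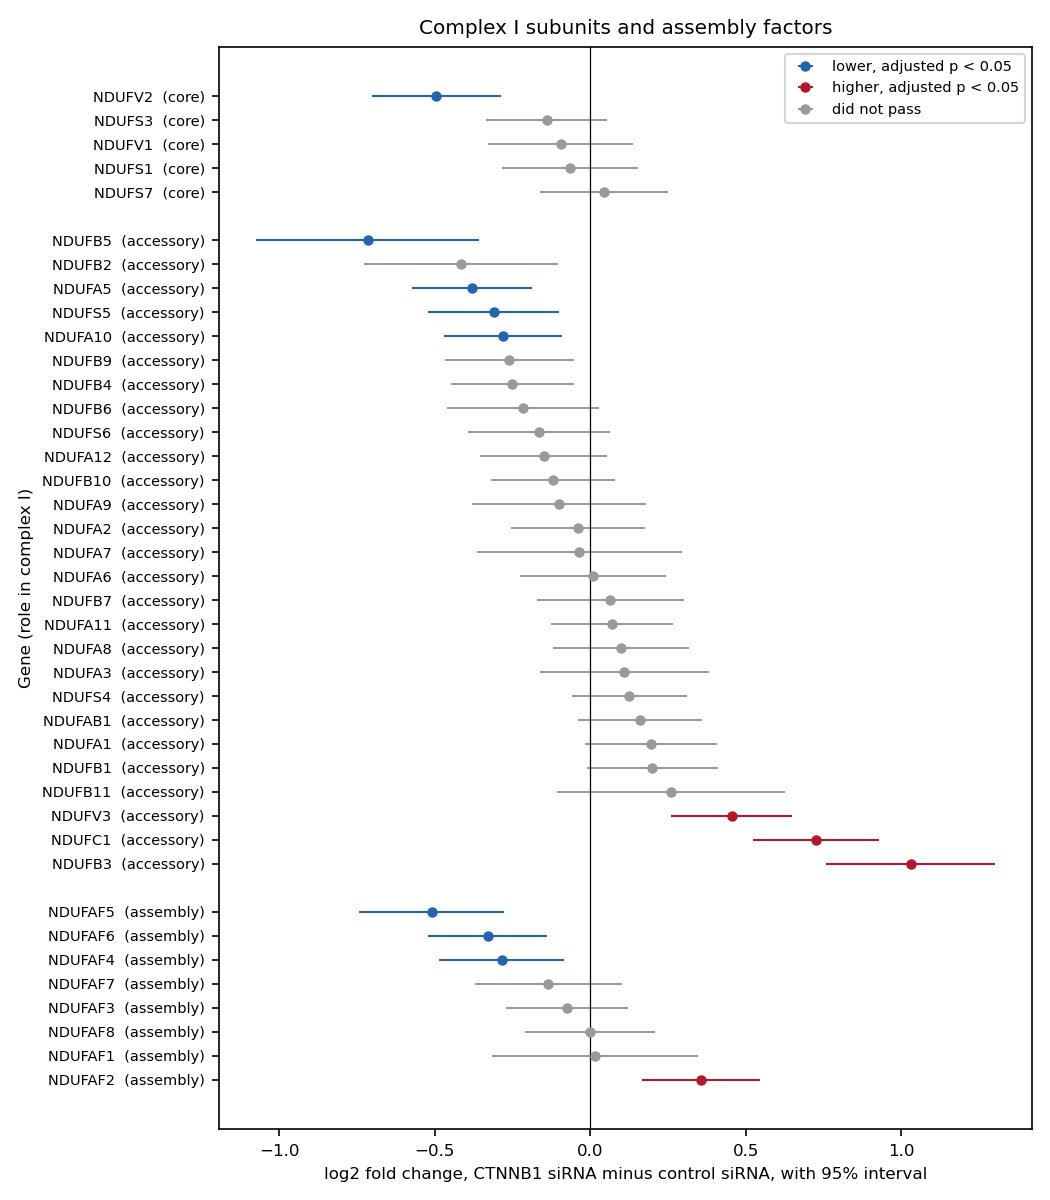
Log2 fold change (x axis, CTNNB1 siRNA minus control siRNA) with its 95% interval from limma for each complex I subunit and NDUFAF assembly factor (y axis), coloured by call. Accessory genes spread from -0.715 for NDUFB5 to 1.03 for NDUFB3, and 4 of 5 core genes did not pass.

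Complex I assembly factors help to build or modify the complex and are not part of it. Of the 8 NDUFAF genes, 3 fell, 1 rose and 4 did not pass. NDUFAF5, which hydroxylates an arginine of a core subunit, was at 6.82 and 6.83 log2 units with CTNNB1 siRNA, against 7.43 and 7.24 with control siRNA, and fell by 0.51 (SE 0.094, adjusted p 0.011 in limma). NDUFAF6 was at 6.24 and 6.17 with CTNNB1 siRNA, against 6.53 and 6.54 with control siRNA, and fell by 0.33 (SE 0.077, adjusted p 0.0249 in limma). NDUFAF2, which is related to NDUFA12, was at 8.71 and 8.72 with CTNNB1 siRNA, against 8.39 and 8.33 with control siRNA, and rose by 0.355 (SE 0.077, adjusted p 0.0189 in limma). NDUFAF4 was at 8.01 and 8.10 with CTNNB1 siRNA, against 8.31 and 8.37 with control siRNA, and fell by 0.285 (SE 0.081, adjusted p 0.0467 in limma). It did not pass without a level filter (adjusted p 0.0595), after centring (0.0569) or with a variance trend (0.0577), all in limma. NDUFAF1, NDUFAF3, NDUFAF7 and NDUFAF8 lay between -0.135 and 0.015.

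In 18 of the 23 called members the array of CTNNB1 siRNA replicate 1 lay further from the control arrays than that of replicate 2. The share over all genes called was not computed, so this count has no background to be set against. CTNNB1 itself was at 6.50 in replicate 1 and at 6.65 in replicate 2, while the control arrays, at 10.06 and 10.20, lay about as far apart. The part of the CTNNB1 level in the calls was not tested. When the fit was repeated on 3 arrays, leaving out each of the 4 in turn, none of the members passed in limma, with adjusted p-values of the 23 genes between 0.0553 and 0.291, although between 19 and 27 members then had an unadjusted p under 0.05 and the 23 genes kept their direction. An exact permutation test of 2 against 2 arrays cannot give a 2-sided p below 0.33, and the calls depend on the variance that limma shares between genes.

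**Figure D4:**
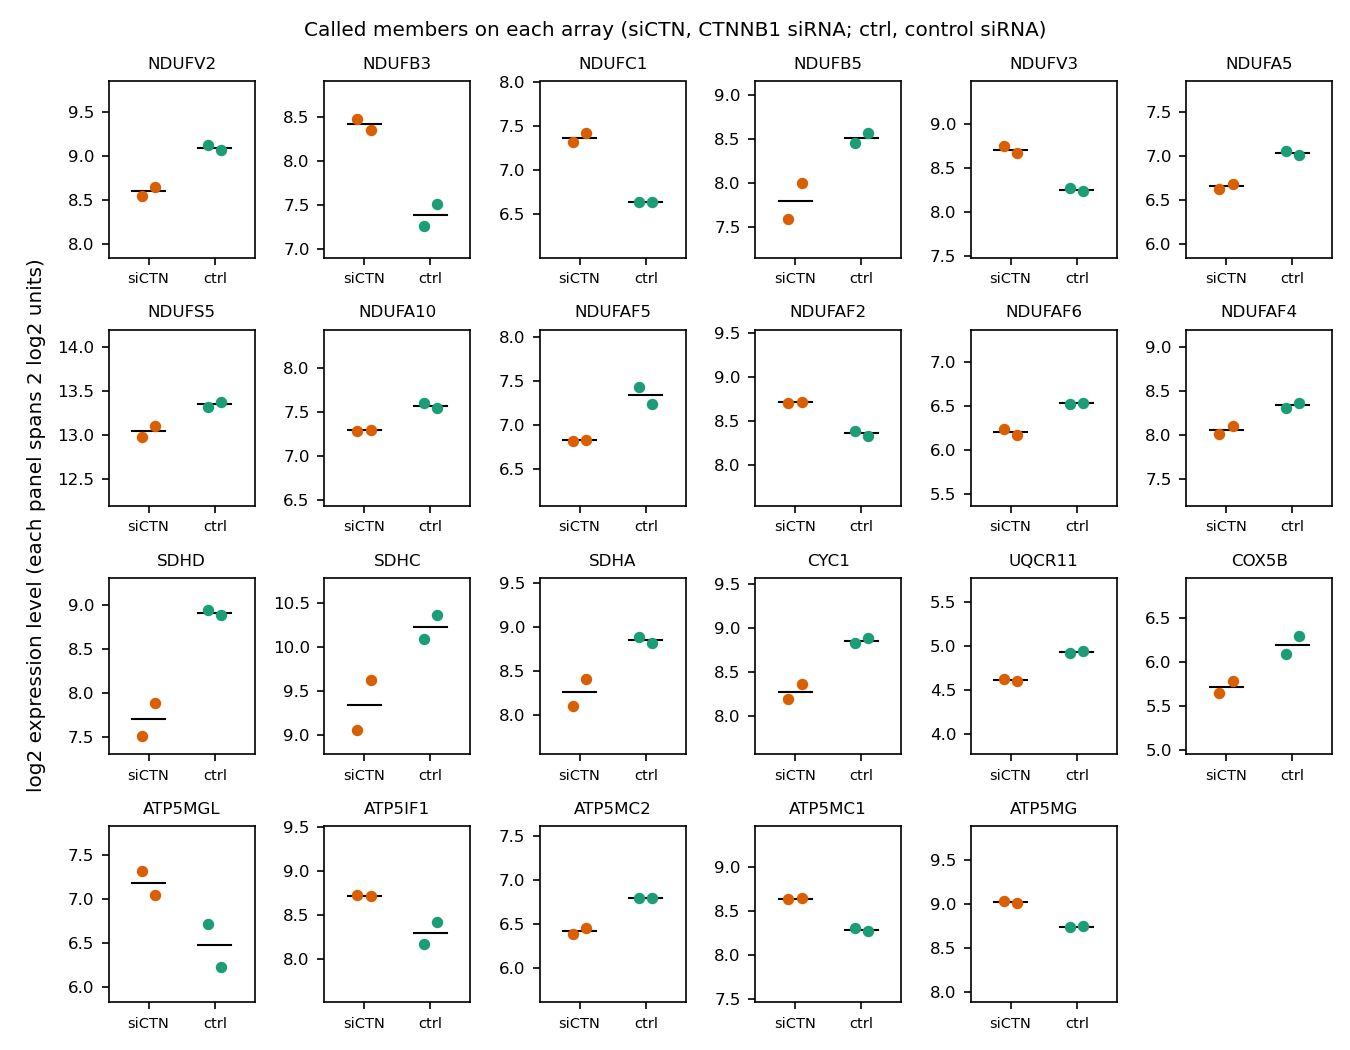
Log2 expression level (y axis, 2 log2 units per panel) of the 23 called members on each array, with CTNNB1 siRNA on the left and control siRNA on the right of each panel. Points are arrays and bars are means of 2. The points of SDHC, SDHD and NDUFB5 with CTNNB1 siRNA lie furthest apart.

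Genes that serve the respiratory chain under other names were examined in the same fit. Of 43 further assembly factors, 8 fell, 4 rose and 31 did not pass. The share called was 27.9%, near the 30.3% of all genes tested. For the lower direction it was 18.6% against 16.1%, and for the higher direction 9.3% against 14.2%. Their median log2 fold change was -0.04. TIMMDC1, a membrane-embedded complex I assembly factor, was at 11.35 and 11.62 log2 units with CTNNB1 siRNA, against 9.84 and 10.23 with control siRNA, and rose by 1.45 (SE 0.159, adjusted p 0.00205 in limma). TMEM126B, from the same kind of assembly complex, rose by 0.59 (SE 0.101). DMAC2 fell by 0.98 (SE 0.076), and COA7, a complex IV assembly factor, by 0.66 (SE 0.098).

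Of 15 genes of coenzyme Q synthesis and cytochrome c, 3 rose, 2 fell and 10 did not pass, which is 33.3% called, against 30.3% of all genes tested. Their median log2 fold change was -0.02. CYCS, which encodes cytochrome c, was at 12.52 and 12.55 log2 units with CTNNB1 siRNA, against 10.56 and 10.93 with control siRNA. It rose by 1.79 (SE 0.133, adjusted p 0.000769 in limma), whereas CYC1, its electron donor in complex III, fell. PDSS2 and PDSS1 together make the side chain of coenzyme Q, and PDSS2 rose by 0.945 (SE 0.095) while PDSS1 fell by 0.55 (SE 0.082). COQ3, a methyltransferase of the same pathway, fell by 0.55 (SE 0.075).

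Of 16 measured genes of pyruvate dehydrogenase and of the tricarboxylic acid cycle other than complex II, 4 rose, 2 fell and 10 did not pass. The share that rose was 25%, against 14.2% of all genes tested, and the share that fell 12.5%, against 16.1%, and the difference from other genes was not tested. The median log2 fold change of these enzymes was 0.232. DLD, a shared subunit of the pyruvate and oxoglutarate dehydrogenases, was at 12.75 and 12.83 with CTNNB1 siRNA, against 11.53 and 11.80 with control siRNA, and rose by 1.125 (SE 0.112, adjusted p 0.00155 in limma). IDH3G rose by 0.665 (SE 0.098) and DLAT by 0.64 (SE 0.086). PDHA1, the catalytic alpha subunit of pyruvate dehydrogenase, fell by 0.555 (SE 0.115).

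Of 21 tested regulators of mitochondrial biogenesis and of mitochondrial DNA expression, 5 fell, none rose and 16 did not pass. The share called was 23.8%, all of it lower, against 30.3% called and 16.1% lower among all genes tested, and the difference from other genes was not tested. The median log2 fold change of these regulators was -0.115. TFAM, which packages and transcribes mitochondrial DNA, was at 8.57 and 8.90 log2 units with CTNNB1 siRNA, against 9.61 and 9.59 with control siRNA, and fell by 0.865 (SE 0.123, adjusted p 0.00475 in limma). The mitochondrial helicase gene TWNK fell by 0.79 (SE 0.113). LRPPRC, which stabilises mitochondrial messenger RNAs, and GABPB1, the partner of GABPA, each fell by 0.59 (SE 0.081 and 0.092). GABPA had a log2 fold change of 0.14 and YY1 of 0.07, and neither passed. The co-activator gene PPARGC1A lay between 3.51 and 3.58, below the level filter. NRF1 and the subunits encoded by mitochondrial DNA were not analysed here.

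**Figure D5:**
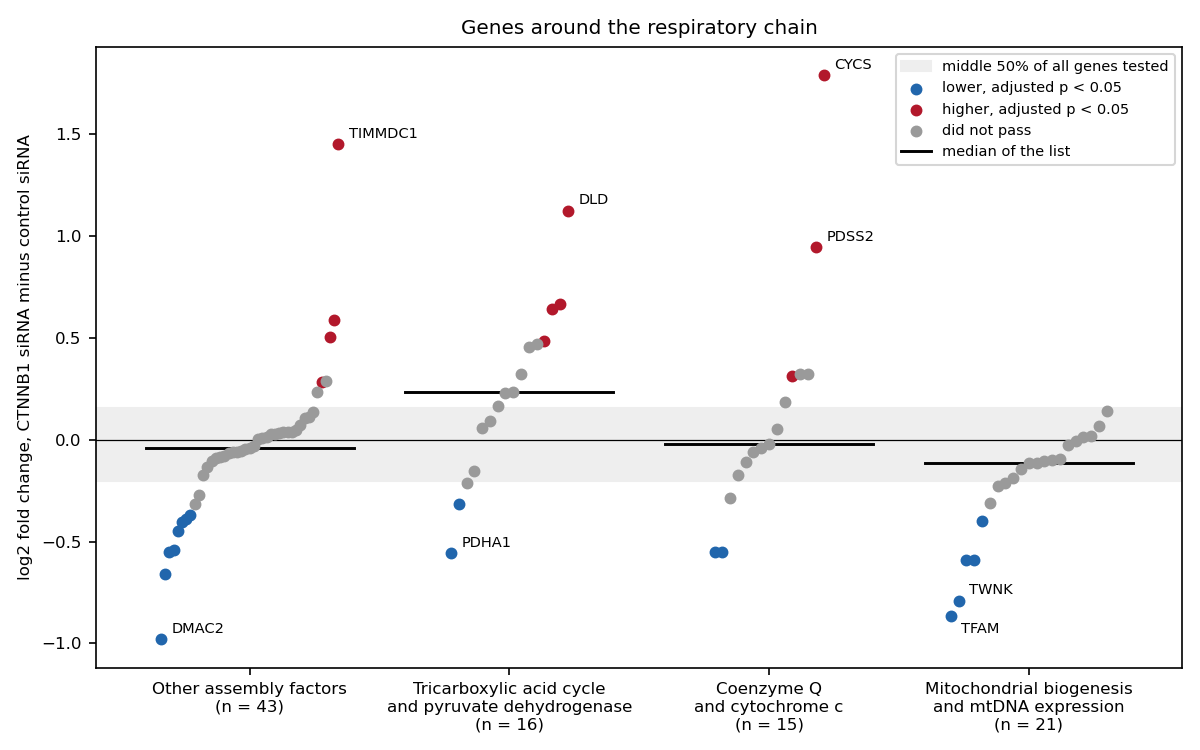
Log2 fold change (y axis, CTNNB1 siRNA minus control siRNA) of the tested genes of 4 lists around the respiratory chain (x axis, with the number tested), coloured by call, with the list median as a bar and the middle 50% of all genes tested as a grey band. CYCS at 1.79 and TIMMDC1 at 1.45 stand highest, and the biogenesis list has no gene called higher.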

How the data were processed

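Total RNA of 4 HCT116 samples was made into biotin-labelled cDNA for Affymetrix whole-transcript arrays, per the labels' protocols. Each deposited value is the log2 level of a transcript cluster, which the authors made with Affymetrix Expression Console and RMA, per the submitters' processing notes. Neither their versions nor the RMA variant and build are named there. The table held 67528 clusters, with array medians between 4.58 and 4.66 log2 units. The fold of a change is stated on this deposited scale.

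The platform's annotation gave 23781 clusters 1 symbol and 1543 several, and 42204 were unnamed in it. Symbols were brought up to date with the RefSeq genes of GRCh38.p14. Of these clusters 21497 matched through the gene ID, 1974 through the symbol and 306 through a synonym, and 4 kept the file's name, which left 22411 genes. Values were fitted as deposited in R 4.3.3 with the package limma 3.58.1 (functions lmFit, eBayes; 2 groups, no block or trend, 5.66 total degrees of freedom) for genes above the 30th percentile of the mean, with Benjamini-Hochberg adjustment over all of them. Tests were 2-sided. Promoters are RefSeq sequences of GRCh38.p14. Python 3.11.15 and matplotlib 3.10.9 served for the figures.

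The members and lists were chosen with earlier results of these data known. Every called member is named, per-array values were to be given for the 4 called members with the largest change in each class, to which ATP5MG was added, and up to 4 called genes are named per further list. Isoform partners are named whatever their values. Other members, and single genes of other lists, were named after their values were seen. The number of arrays limits the precision. Alternatives covered the level filter, centring, quantile normalization, a variance trend, the replicate block, the choice of cluster and leaving out each array.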

Additional observations from a re-analysis of the deposited data

How the results depend on the processing

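With all arrays kept, between 11 and 15 oxidative phosphorylation genes were called lower and between 6 and 9 higher over the alternatives with another level filter, centring, quantile normalization, a variance trend, a replicate block, the mean of all clusters or updated symbols. The median log2 fold change of the members lay further from its value of -0.095 than the spread between replicates after quantile normalization, at -0.051, and the cause was not tested. With each array left out in turn, the members called lower ranged from 0 to 0, the members called higher from 0 to 0 and all genes called from 0 to 0, with 1 residual degree of freedom, between 19 and 27 members and between 4732 and 4930 genes at an unadjusted p under 0.05 in limma, and medians from -0.11 to -0.04. The labels do not state that equal replicate numbers share a culture, day or batch, though the letter codes in the titles are adjacent within a number. The replicates' deviations in the 2 groups correlated across genes with r = 0.271. With the replicate block, 3898 genes were called in place of 4756, among them 11 members lower and 6 higher. Of 160 refits of the 23 called members with all arrays, 145 kept the call and 15, in 7 genes, lost it, with adjusted p-values from 0.0505 to 0.0779 in limma, and none changed sign. The block accounted for 7 of these, with adjusted p-values of 0.0676 for SDHA, 0.0521 for NDUFS5, 0.0604 for NDUFA10, 0.0549 for NDUFAF4, 0.0505 for NDUFAF6, 0.0779 for ATP5IF1 and 0.0549 for ATP5MG.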
